A study of Mus musculus with 18 samples.

Results

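In mouse embryonic stem cells that express the W464A/W465A form of DNMT1, most highly methylated DNA lost most of its methylation, but a minority of 1 kb tiles kept 40% or more. These tiles are described here. A tile was an autosomal window of 1 kb counted from position 1 of each chromosome, with at least 3 CpGs that had at least 5 reads in all 18 libraries. The members were chosen by their measured levels. The level of a tile in a group was the number of methylated reads over all reads, summed over these CpGs and over the 3 libraries (the pooled level). Members had a pooled level of at least 70% with WT DNMT1 and at least 40% with W464A/W465A. The rule was met by 8620 tiles, which is 5.57% of all 154801 tiles and 8.86% of the 97287 tiles with a WT level of at least 70% (WT-high tiles). The members hold 35263 usable CpGs. The other 88667 WT-high tiles serve as their comparison.

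All cells lacked their own Dnmt1 and carried a pPyCAGIP expression vector kept under puromycin. The vector supplied WT DNMT1 or a form with tryptophan replaced by alanine: W796A, W465A, W464A/W465A, W465A/W796A or W464A/W465A/W796A (the triple mutant). Each group has 3 biological replicates, and CpG methylation was read by eRRBS, an enhanced form of reduced representation bisulfite sequencing in which DNA is cut with MspI, BfaI and MseI and unmethylated cytosine is converted with bisulfite. Several stable lines were made per group, and the labels do not say whether replicates are different lines, so the p-values measure the spread between these libraries, which may be technical. Empty-vector cells were not analysed here. Methylation counts cannot check which DNMT1 form a library expresses. None of the 27 promoter tiles of pluripotency genes was WT-high.

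DNMT1 copies CpG methylation onto the new DNA strand after replication and so keeps a methylation pattern through cell division. W464 and W465 lie in its replication foci targeting sequence, a domain that reads marks on histone H3, and W796 lies in its first bromo-adjacent homology domain, which reads marks on histone H4. In stem cells most CpGs outside CpG islands are methylated, in gene bodies, between genes and in repeats alike.

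Each library gave between 59776439 and 138978763 CpG calls. The median coverage of the CpGs shared by all libraries was 12 to 29 reads. No conversion control was available, and duplicate reads could not be recognised, so no interval covers errors from either. The Wilson intervals given below are for shares of member tiles and treat tiles as independent draws. They cover neither the counting error of reads nor the change of the member set when a library is left out. WT replicate 1 and W796A replicate 1 were the lowest libraries of their groups: over all tiles their means were 53.1% and 48.9%, against 63.9% to 70.5% in the other 4 libraries of those groups. In a culture, a tile level cannot tell apart fewer cells that hold methylation from less methylation per cell.

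The sequences of 4 members are shown to make plain what such a tile looks like. They are the first 4 of the members with at least 50 reads in every library, ordered by the lowest library over W464A/W465A and the triple mutant. Each line gives the 300-base window with the most usable CpGs, on the plus strand of GRCm38, from 5′ to 3′. Capitals mark the CpGs that were measured in all libraries. The last window, from a Tmem161b intron, is a WT-high tile that lost nearly all methylation, picked for contrast after its values were seen.
Enox1 intron, chr14:77383194-77383493: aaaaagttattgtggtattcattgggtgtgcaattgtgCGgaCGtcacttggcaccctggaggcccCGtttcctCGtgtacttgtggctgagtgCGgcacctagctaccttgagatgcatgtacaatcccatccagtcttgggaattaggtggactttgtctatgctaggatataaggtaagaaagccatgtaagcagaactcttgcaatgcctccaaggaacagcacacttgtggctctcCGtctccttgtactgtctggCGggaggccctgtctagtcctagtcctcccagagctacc
Intergenic tile nearest to Klf14, chr6:31142551-31142850: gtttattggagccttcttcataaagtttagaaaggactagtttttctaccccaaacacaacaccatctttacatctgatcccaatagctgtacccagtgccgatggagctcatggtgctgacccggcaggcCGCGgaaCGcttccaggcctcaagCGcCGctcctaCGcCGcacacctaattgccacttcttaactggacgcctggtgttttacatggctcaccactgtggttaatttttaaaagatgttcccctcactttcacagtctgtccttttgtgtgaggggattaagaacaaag
Galnt2 intron, chr8:124310470-124310769: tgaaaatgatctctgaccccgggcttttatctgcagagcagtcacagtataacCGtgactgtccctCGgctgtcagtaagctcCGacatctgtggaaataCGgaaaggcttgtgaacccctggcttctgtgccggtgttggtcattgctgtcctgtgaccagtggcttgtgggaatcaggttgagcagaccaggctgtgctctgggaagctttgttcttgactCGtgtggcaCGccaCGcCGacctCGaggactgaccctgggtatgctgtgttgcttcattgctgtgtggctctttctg
Man1c1 intron, chr4:134658378-134658677: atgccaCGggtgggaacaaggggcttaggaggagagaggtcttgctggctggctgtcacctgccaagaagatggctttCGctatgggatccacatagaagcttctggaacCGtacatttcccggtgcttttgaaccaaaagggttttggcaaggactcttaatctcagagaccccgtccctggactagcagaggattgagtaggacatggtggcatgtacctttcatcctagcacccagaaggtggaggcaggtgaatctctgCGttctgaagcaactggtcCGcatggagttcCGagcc
Tmem161b intron, not a member, chr13:84237075-84237374: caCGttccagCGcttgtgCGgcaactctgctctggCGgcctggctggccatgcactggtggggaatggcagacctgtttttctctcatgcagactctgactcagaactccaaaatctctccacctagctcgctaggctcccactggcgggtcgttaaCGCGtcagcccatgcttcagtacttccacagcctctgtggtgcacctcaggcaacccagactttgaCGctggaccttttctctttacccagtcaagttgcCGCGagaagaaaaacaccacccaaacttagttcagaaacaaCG

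In the Enox1 window the 7 measured CpGs had pooled levels between 46.3% and 73.2% in the triple mutant, and between 80.4% and 91.9% in W796A. In the Galnt2 window the 9 measured CpGs lay between 37.0% and 65.2% in the triple mutant. Retention there was therefore spread over the CpGs of the window and did not come from a single one. In the Man1c1 window the 6 measured CpGs were less even, from 19.5% to 67.9%. In the Tmem161b window none of 10 measured CpGs was above 8.70% in the triple mutant, although W796A reached 77.5%.

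The triple mutant carries both substitutions of the rule, and its libraries were not used to choose the members. The mean level over member tiles was 38.5% ± 3.63 (SD, n = 3) there, with libraries at 38.0%, 42.3% and 35.1%. Over the other WT-high tiles it was 24.9% ± 2.99 (SD, n = 3), with libraries at 23.9%, 28.2% and 22.5%. Every triple-mutant library was thus higher over the members than any of the 3 was over the other tiles. Within a library the members lay above the other tiles by 14.1, 14.1 and 12.6 points, a mean of 13.6 ± 0.853 (SD, n = 3). In W796A, which served as the control of the triple mutant, this gap was 4.63 ± 2.22 points (SD, n = 3). Set against the W796A mean, the members kept 46.0% of their level in the triple mutant and the other WT-high tiles kept 31.5%.

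W465A, which leaves W464 in place, gave the same order of the tile sets. Its member mean was 49.6% ± 6.62 (SD, n = 3), and its mean over the other WT-high tiles was 34.7% ± 7.34 (SD, n = 3). The library means of the sets did not overlap, since members ranged from 45.4% to 57.2% and other tiles from 29.98% to 43.2%. In W465A/W796A the members averaged 68.8% ± 3.74 (SD, n = 3) and the other tiles 58.9% ± 4.26 (SD, n = 3). W796A itself differed little between the sets, with 83.6% ± 11.6 (SD, n = 3) over members and 79.0% ± 13.6 (SD, n = 3) over other tiles. In all 12 libraries outside the rule the mean over members was the higher one. The member values that the rule used were 84.9% ± 5.64 (SD, n = 3) in WT and 45.02% ± 4.07 (SD, n = 3) in W464A/W465A. Over the other WT-high tiles W464A/W465A averaged 24.5% ± 3.04 (SD, n = 3).

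**Figure D1:**
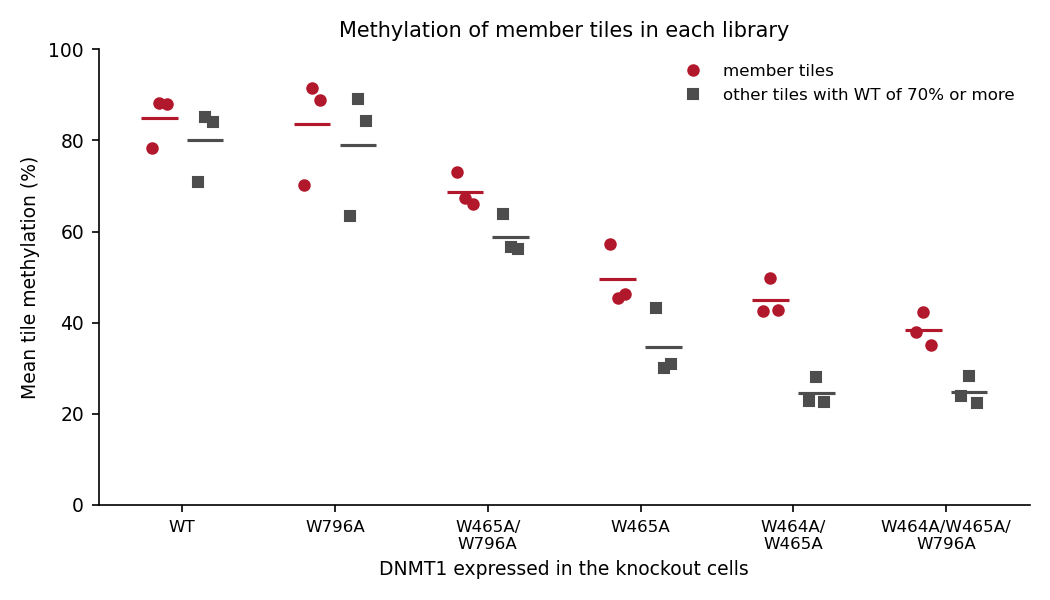
Mean methylation (%) of member tiles (red circles) and other WT-high tiles (grey squares) in each of 18 libraries, with bars at the group means. The sets lie close together in WT and W796A and are 13.6 points apart in the triple mutant; WT and W464A/W465A were used to choose the members.

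Tile by tile, 3488 members (40.5%) had a pooled level of 40% or more in the triple mutant. Among the other WT-high tiles 3485 did (3.93%). Of the members, 3727 lay between 30% and 40%, 1311 between 20% and 30%, and 94 below 20%. Most members were therefore below 40% in the triple-mutant libraries, which did not choose them. All 3 triple-mutant libraries were at 40% or more in 1146 members (13.3%), against 0.759% of the other WT-high tiles. All 3 lay above the median of the other tiles in 6350 members (73.7%) and in 23.3% of the other tiles. All 3 lay at or below it in 66 members.

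**Figure D2:**
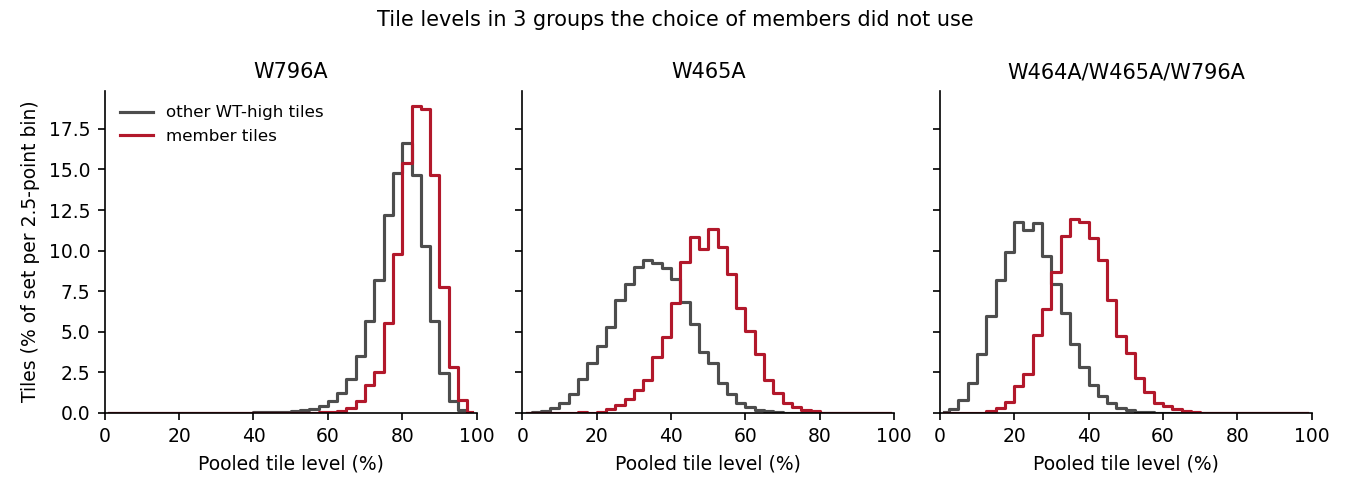
Distribution of pooled tile levels (%) in W796A, W465A and the triple mutant, as the share of each set per 2.5-point bin, for members (red) and other WT-high tiles (grey). The curves overlap in all 3 groups; the member medians are 84.3%, 49.8% and 37.9%, against 80.0%, 35.0% and 24.2% for the other tiles.

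The label of the set speaks of resistance, but the members also lost methylation. In the quasi-binomial model, called lower means an adjusted p under 0.05 over all tiles and a fall of at least 10 points in pooled level. Against W796A, 8472 of 8620 members (98.3%) were called lower in the triple mutant, where 84.1% of all tiles and 99.6% of the other WT-high tiles were. No member was called higher, and 0.000646% of all tiles were. With an offset for the mean tile level of each library, which asks for a change beyond the global one, 2.04% of members and 10.9% of all tiles were called lower. The median difference was -45.8 points over members, -54.9 over the other WT-high tiles and -49.5 over all tiles. The 148 members not called had a median of 51.4% in the triple mutant and 18 reads in their shallowest library, against 24 reads for the members called. The median loss was thus smaller in the members, and without the offset few of them were not called.

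The 5 comparisons share libraries with one another, and W796A serves as control in 3 of them. W465A was called lower than W796A in 7550 members (87.6%), where 80.7% of all tiles and 96.7% of the other WT-high tiles were. The median difference there was -34.1 points over members and -44.3 over the other WT-high tiles. Adding W464A to W465A/W796A, which gives the triple mutant, called 5973 members lower (69.3%) beside 65.9% of all tiles and 83.7% of the other WT-high tiles. With the library offset no tile was called in it by the quasi-binomial model (21211 tiles had an unadjusted p under 0.05). Its median difference was -31.0 points over members and -34.8 over the other WT-high tiles. Without W465A/W796A replicate 1, 27.96% of members and 32.6% of all tiles were called in that comparison.

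Smaller differences were called in few members, and which libraries entered decided how many. W465A/W796A was called lower than W796A in 730 members (8.47%), where 17.2% of all tiles and 19.2% of the other WT-high tiles were, and the median difference over members was -14.6 points. Leaving out 1 library moved the members called from 0.371% without W465A/W796A replicate 3 to 63.7% without W796A replicate 1. W465A/W796A was called higher than W465A in 863 members (10.01%), where 18.8% of all tiles and 23.1% of the other WT-high tiles were, with a median difference of 19.14 points. Without W465A replicate 2 no tile was called there by the quasi-binomial model. The fall of W465A and the rise on adding W796A were thus both present in the members' medians, with the second not stable as a count of calls.

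The same comparisons were also tested with limma and edgeR. Limma called the triple mutant lower than W796A in 99.1% of members and 83.8% of all tiles, and edgeR in 98.8% and 83.9%. W465A was lower than W796A in 93.0% and 81.5% by limma and in 90.7% and 81% by edgeR. For the triple mutant against W465A/W796A limma gave 55.7% and 60.2% and edgeR 60.1% and 63.1%, so the member share lay below that of all tiles, whereas it lay above in the quasi-binomial model. W465A/W796A was lower than W796A in 13.1% and 15.3% by limma and in 7.85% and 14.2% by edgeR. W465A/W796A was higher than W465A in 3.85% and 9.28% by limma and in 6.17% and 14.9% by edgeR.

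The 8 members that opened the order above retained 44.1% or more in every W464A/W465A and triple-mutant library. Both groups entered this choice, so the values describe them and are no test. The same holds for the calls and p-values given for these 8 tiles. The Enox1 tile (chr14:77383001-77384000, an intron of an oxidase gene of the cell surface, 2854 bp from its start) had 55.2%, 56.5% and 62.6% in the triple mutant. Its W796A libraries were at 75.9%, 94.8% and 93.1%. These groups do not overlap, and the lowest W796A library is replicate 1. Its fall of 29.8 points had an adjusted p of 0.00260 in the quasi-binomial model.

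The intergenic tile chr6:31142001-31143000 lies 183422 bp from Klf14, a transcription factor gene. It had 50.9%, 47.6% and 57.1% in the triple mutant and 72.3%, 96.8% and 94.0% in W796A. W465A/W796A kept it at 94.6%, 92.9% and 85.4%, so here all 3 libraries of that double mutant were above W796A replicate 1. Of its 50-base words 42.3% occur elsewhere in the genome, which makes read placement less certain there than in the other named tiles.

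The Galnt2 tile (chr8:124310001-124311000, an intron of an enzyme that starts mucin-type O-glycosylation) had 47.6%, 60% and 50.4% in the triple mutant. W796A had 86.8%, 95.3% and 92.1% in it. The groups do not overlap, and this is a case in which W796A replicate 1 is close to the other replicates. W465A libraries lay at 84.4%, 62.0% and 58.0%, with replicate 1 of W465A just below the lowest W796A library. The fall from W796A to the triple mutant was 40.4 points (quasi-binomial adjusted p 6.63e-05).

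The Man1c1 tile (chr4:134658001-134659000, an intron of a Golgi mannosidase gene) had 47.5%, 63.1% and 49.6% in the triple mutant and 75.5%, 89.4% and 94.2% in W796A. The tile chr8:91831001-91832000, 29433 bp from the homeobox gene Irx3, had 46.3%, 64.3% and 46.2% in the triple mutant. Its W796A libraries lay at 68.7%, 93.1% and 97.3%, so the highest triple-mutant library came close to W796A replicate 1. The tile chr2:18838001-18839000, 27620 bp from the lipid kinase gene Pip4k2a, had 47.5%, 54.1% and 47.8% in the triple mutant. All 3 tiles were far from emptied and all 3 were called lower than W796A.

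In the Armc9 intron (chr1:86259001-86260000, a gene of primary cilia) the triple mutant was the most even, at 45.6%, 44.4% and 46.5% over at least 145 reads a library. W796A had 73.3%, 93.5% and 94.2% there. The Bmp7 intron (chr2:172932001-172933000, 7821 bp from the start of this secreted growth factor gene) had 52.3%, 58.1% and 55.6% in the triple mutant. Its W796A libraries were at 69.3%, 93.9% and 97.1%. Over the 8 tiles the fall from W796A ranged from 29.8 to 41.8 points in pooled level, and all 8 were called (quasi-binomial adjusted p at most 0.00562). Since the triple-mutant libraries entered the choice of these tiles, the calls are no test.

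**Figure D3:**
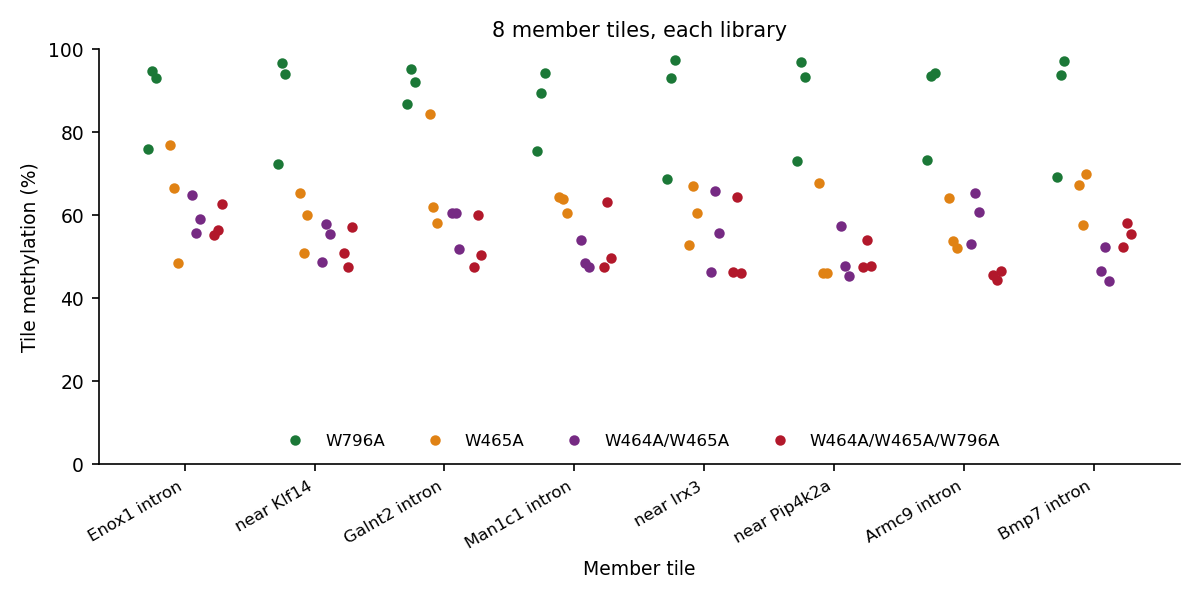
Methylation (%) of the 8 members with the highest lowest-library level, 1 point per library, in W796A, W465A, W464A/W465A and the triple mutant. W796A replicate 1 is the lowest green point in each tile; the triple-mutant points lie between 44.4% and 64.3%.

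Members differed widely in how far they fell in the triple mutant. Among members read at least 50 times in every library, the largest fall was in a Ccdc12 intron (chr9:110706001-110707000), where W796A had 65.2%, 94.1% and 96.0% and the triple mutant 18.8%, 24.6% and 23.5%. This tile had met the rule with 52.5%, 36.6% and 31.6% in W464A/W465A, so replicate 1 alone was above 40%. A Stab1 exon (chr14:31141001-31142000, a scavenger receptor gene) fell from 68.8%, 93.8% and 94.0% to 24.5%, 25% and 16.1%. An Enthd1 intron (chr15:80501001-80502000) fell from 68.3%, 95.8% and 95% to 26.9%, 31.4% and 9.62%. These 3 tiles fell by 65.5, 65.5 and 65.3 points in pooled level (quasi-binomial adjusted p at most 0.000126). They were chosen for the size of this fall in these libraries, so the values describe them and are no test.

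Among members read at least 50 times in every library, the smallest fall was in an Optn intron (chr2:5028001-5029000, an autophagy receptor gene), where W796A had 42.6%, 90.3% and 73.3% and the triple mutant 43.4%, 56.0% and 33.3%. The groups overlap there, and the difference of -24.996 points had a quasi-binomial adjusted p of 0.0486. Without W796A replicate 2 it was -10.9 points with an adjusted p of 0.310. A Dnah2 exon (chr11:69464001-69465000, an axonemal dynein gene) had 50.5%, 87.4% and 81.5% in W796A and 48.3%, 54.7% and 38.8% in the triple mutant, which overlap as well. A Cep57l1 intron (chr10:41803001-41804000) had 67.1%, 90.6% and 93.2% in W796A and 49.8%, 64.6% and 47.6% in the triple mutant. Without W796A replicate 2 the Dnah2 and Cep57l1 tiles also missed the threshold, with adjusted p of 0.150 and 0.0925.

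The values next to the thresholds show how narrow the choice was. The 2513 members up to 2 points above the 40% threshold had a median of 35.4% in the triple mutant. The 3086 WT-high tiles up to 2 points below it had 34.0%. The set is the upper end of a continuous range of levels, and no gap separates it from the rest. Over all WT-high tiles the pooled levels of W464A/W465A and the triple mutant had a Pearson r of 0.703 across 97287 tiles, and 0.778 across the 19200 with at least 50 reads in every library; tiles are not independent and share their depth between groups.

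Depth and the starting level both moved with membership. Members made up 12.05% of WT-high tiles with 15 to 19 reads in the shallowest library and 1.90% of those with at least 100. The triple-mutant median of the members was 37.5% in the first class and 38.8% in the last, so members of deep tiles retained as much. Among the 873 members read at least 50 times in every library, the mean was 38.9% and the gap to other such tiles 14.0 points. Members were 1.52% of tiles with a WT level of 70% to 75% and 24.3% of tiles at 90% or more. At equal WT level the sets still differed: for WT levels of 85% to 90% the triple-mutant median was 38.3% in members and 27.6% in other tiles. These classes were set after the values were seen.

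Introns held more of the members than of the other WT-high tiles. Counting a tile as promoter when it lay within 500 bp of a start site, 3876 members (44.97%, 95% Wilson interval 43.9% to 46.0%) were intronic, against 35.2% of the other WT-high tiles and 30.2% of all tiles. Intergenic tiles made up 30.4% of the members and 38.5% of the other WT-high tiles. Exons held 22.4% and 23.1%. Promoters held 185 members (2.15%), beside 3.27% of the other WT-high tiles and 15.5% of all tiles. In tiles of 50 reads or more per library the intron shares were 39.7% of members and 27.0% of other tiles, so the excess was present in deep tiles too.

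Member share also depended on the distance to the nearest gene start. It was 5.64% of WT-high tiles within 2000 bp, 6.47% from there to 10000 bp, 9.52% up to 50000 bp and 11.3% up to 200000 bp. Beyond that it was 7.94%. The share thus rose away from starts and fell again in the most remote tiles. By chromosome it ranged from 7.04% on chromosome 7 to 11.3% on chromosome 12.

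Repeats were fewer in the members. At least 50% of the tile was repeat-masked in 499 members (5.79%, 95% Wilson interval 5.32% to 6.30%), against 10.98% of the other WT-high tiles and 9.52% of all tiles. At 50 reads or more the shares were 3.78% and 13.4%. In tiles that were at least 75% masked, 2.59% were members, although these members had a triple-mutant median of 40.6%. Sequence that occurs more than once (at least 50% repeated 50-base words) was found in 0.951% of members and 3.26% of the other WT-high tiles. Repeat classes were not analysed here.

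CpG density differed little at the median, with 14 CpGs per kb in members and 15 in the other WT-high tiles, but it did so at the extremes. Tiles with over 30 CpGs per kb were 1.03% of members, 2.68% of other WT-high tiles and 16.6% of all tiles. Member share was highest at 11 to 15 CpGs per kb (9.85%) and lowest above 30 (3.605%). In these dense tiles the members kept 40.0% in the triple mutant, at the median, and the other tiles 22.8%. The motif TGCCGC, bound by the imprint-protecting factor ZFP57 when methylated, was searched on both strands. It was in 12.9% of members, 13.7% of the other WT-high tiles and 18.7% of all tiles of 1 kb. CCGG, the MspI site used in the assay, was in 69.6%, 72.9% and 78.3%. Neither motif was more frequent in the members.

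**Figure D4:**
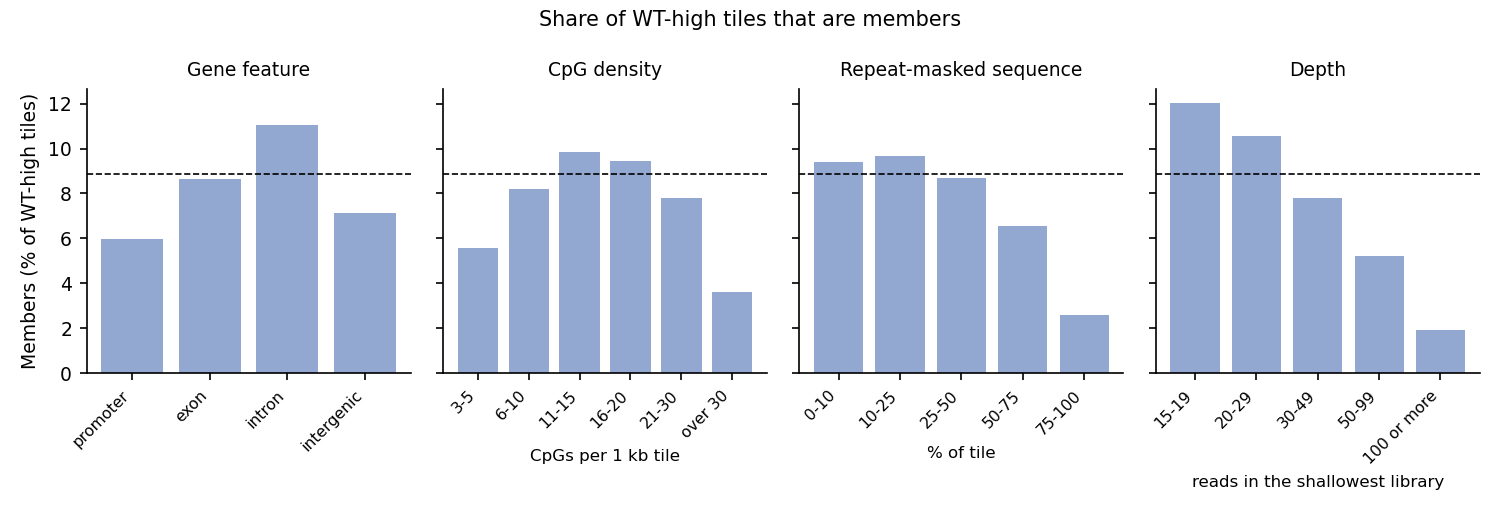
Share of WT-high tiles that are members (bars, %) by gene feature, reference CpGs per tile, repeat-masked share and reads in the shallowest library; the dashed line is the share over all WT-high tiles, 8.86%. Among gene features the share is highest in introns; it is low in tiles that are repeat-rich, CpG-dense or deeply read.

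Known targets of strong epigenetic control were looked up by gene lists. Over all genes, 185 of 3088 WT-high promoter tiles (5.99%) were members. At that share, lists as short as those below would hold few or none. Whether any list differs from it was not tested. Imprinted genes, whose parental copies differ in methylation, had 9 WT-high tiles at their own promoters and no member among them. Germline genes, which promoter methylation silences in somatic cells, had 13 such tiles and no member, and their triple-mutant median was 20.98%. Olfactory and vomeronasal receptor genes had 48 and no member. Zinc finger genes of the Zfp series had 29, of which 2 were members, in Zfp827 and Zfp410. No member was a promoter tile of a pluripotency or trophoblast gene either, where no promoter tile was WT-high.

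In the bodies of imprinted genes, 30 of 211 WT-high tiles (14.2%) were members, beside 8.86% over the genome. Of these, 11 lay in Trappc9, a long gene of vesicle transport, 3 each in Kcnq1 and Igf2r, and 2 in the germline gene Fkbp6, which this list also holds. A Gnas tile (chr2:174346001-174347000) is counted here as gene body, since the start site it covers is that of the overlapping model Gm20721. In Trappc9 the triple-mutant levels of the 11 members ran from 24.4% to 45.6%, so most were under 40%. A Grb10 intron (chr11:11965001-11966000, a gene for a growth-restraining adaptor) kept 58.0% in the triple mutant and 92.3% in W796A. This was the highest triple-mutant level of the 30 members. An exon of the retrotransposon-derived gene Rtl1 (chr12:109592001-109593000) kept 43.4%. Germline gene bodies had 13 members of 86 WT-high tiles. Their triple-mutant levels ran from 29.3% in a Mov10l1 exon to 55.4% in a Tdrd6 exon (chr17:43628001-43629000, a piRNA pathway gene). Over all WT-high body tiles the triple-mutant median was 23.8% for the germline list and 25.9% for the imprinted list. The other WT-high tiles in the genome had a median of 24.2%. Zfp gene bodies had 39 of 640 (6.09%), receptor genes 3 of 79, and the clustered protocadherins 0 of 19, with a triple-mutant median of 13.4%. The lists' counts are descriptions, and the tiles of a gene are not independent.

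Of 12730 protein-coding genes with a WT-high tile, 3249 held a member and 585 held 3 or more. The genes named next were chosen after their values were seen. Wwox, a tumour suppressor gene at a fragile site, held 39 members among its 124 WT-high tiles (31.5%). Its other WT-high tiles had a triple-mutant median of 29.8%, above the 24.2% of such tiles in the genome. Cdh13, which encodes T-cadherin, had 26 of 95, the transcription factor gene Zfhx3 25 of 108, and Prkce, a protein kinase C, 20 of 71. In Zfhx3 and Prkce the tiles that were not members had medians of 30.2% and 32.7%. Foxp1, another transcription factor gene, had 13 of 33 and Eif4g3, a translation factor gene, 15 of 40. Wwox, Cdh13 and Zfhx3 all lie on chromosome 8, where 9.89% of WT-high tiles were members.

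Of 444 genes with at least 20 WT-high tiles, 32 had no member. At the member share of 8.86% over all WT-high tiles, some genes with so few tiles would hold none. Whether the 32 genes differ from that share was not tested. They include Rnf220 (31 tiles), Casz1 (29) and Mecom (27). The triple-mutant medians of these 3 genes were 25%, 24.5% and 25.6%, near that of WT-high tiles in general. The 32 genes also include the overlapping models Gm37013, Gm42416 and Gm37388 on chromosome 18, which share tiles and had medians of 13.5%, 13.5% and 13.6%. Genes without a member thus lay both near and well below the general median.

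Levels near members were higher as well, in distance classes set after the values were seen. WT-high tiles next to a member, but not members, had a triple-mutant mean of 28.97% ± 3.72 (SD, n = 3), with libraries at 27.6%, 33.2% and 26.2%. At more than 100 kb from any member the mean was 23.6% ± 2.79 (SD, n = 3), with libraries at 22.6%, 26.7% and 21.4%. Each library was higher near members than far from them. W796A differed by less over the same distances, with 79.7% ± 13.5 (SD, n = 3) next to members and 79.0% ± 13.7 (SD, n = 3) beyond 100 kb. A WT-high tile next to a member was itself a member in 15.7% of cases, and one next to a WT-high tile that was not a member in 9.03%.

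**Figure D5:**
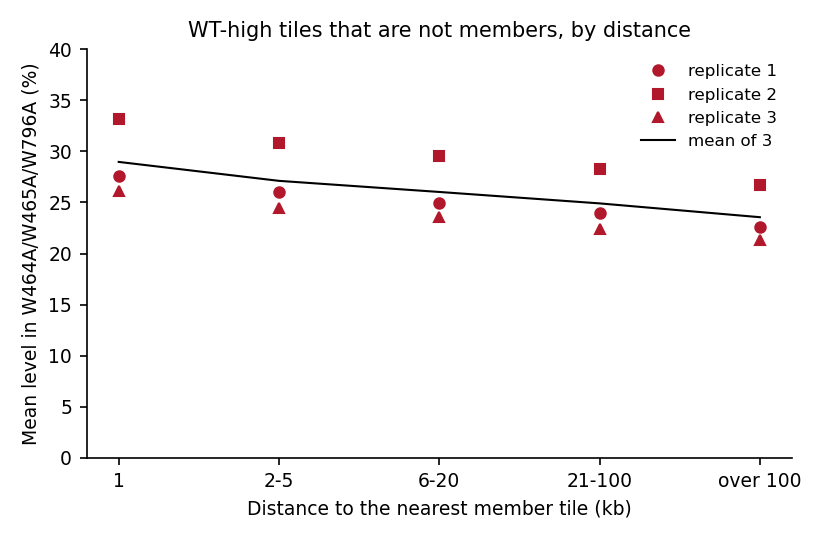
Mean level (%) of WT-high tiles that are not members in the 3 triple-mutant libraries, by distance to the nearest member (kb). All 3 libraries fall with distance, from a mean of 28.97% at 1 kb to 23.6% beyond 100 kb.

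Members had only 2502 WT-high tiles beside them in all, so most had no WT-high neighbour to join. Joined where they touched, they formed 8237 single tiles, 175 runs of 2 and 11 runs of 3, and no longer run. The first 3 of these 11 by position lie in 2 genes. Dst, which encodes a large cytoskeletal linker, held a run at chr1:34246001-34249000 and another at chr1:34256001-34259000, which covers an annotated Dst start. The triple-mutant means of the 6 Dst tiles were between 34.9% and 47.8%. A run in Abtb2 introns (chr2:103579001-103582000) had means of 34.5%, 47.5% and 35.8%, the middle tile with libraries from 27.8% to 83.3% over as few as 18 reads.

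At single CpGs the members showed intermediate levels and few extremes. In the triple mutant 45.2% of the 35263 member CpGs were at 40% or more, 1.49% at 70% or more and 1.78% below 10%. Of the 418028 CpGs of other WT-high tiles, 13.2% were at 40% or more, 0.126% at 70% or more and 12.5% below 10%. The median SD between CpGs of a tile was 11.6 points in members and 9.80 in the other tiles. In W796A it was 5.07 and 6.06. Members were read less deeply, with a median of 50 reads against 59, and how far counting error enters these SDs was not tested. Member CpGs at 70% or more were thus rare, though more frequent than in the other tiles. The tile levels were mostly made of many CpGs in part methylated.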

How the data were processed

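The authors deposited, for each CpG and library, the counts of methylated and of total reads, whole numbers without normalization. All count columns were used. The submitters' processing notes name cutadapt 1.2.1, Bismark 0.18.1, Bowtie 1.2 and the builds mm10 and GRCm38. Their settings and any removal of duplicates are not given in the sources used here. Of 21867550 listed CpGs, all at CpGs of GRCm38, 1416764 autosomal ones had at least 5 reads in every library. Features came from GENCODE M21 protein-coding genes, and repeats from lower-case RefSeq sequence of that build.

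Counts summed per tile entered a quasi-binomial logistic model of the 12 libraries of the 4 groups the rule does not use (residual degrees of freedom 8). Tile overdispersion was shrunk to a common prior as in limma's squeezeVar (3.51, prior degrees of freedom 4.93), and F tests were adjusted by Benjamini-Hochberg over all 154801 tiles. The fit was tested on simulated data. Python 3.11.15, numpy 2.4.6, scipy 1.17.1 and pandas 2.3.3 were used, with R 4.3.3, limma 3.58.1 and edgeR 4.0.16 for alternatives. No test was made on WT or W464A/W465A.

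Members and gene lists were chosen with earlier results of these data known. Tiles were named by 4 rules: the 8 highest by their lowest library in W464A/W465A and the triple mutant, the 3 largest and 3 smallest falls against W796A, the 3 longest runs, and members at promoters of imprinted, germline, pluripotency or trophoblast genes, of which there were none. The first 2 rules asked for 50 reads in every library. The 3 runs named share their length with 8 more and were taken by position. In none of 6 pairs of tested groups did all 3 same-numbered libraries deviate together with r over 0.1 (range -0.232 to 0.121). No block was therefore used, but this cutoff cannot exclude a weak pairing by number. For W465A and W465A/W796A, r was 0.0306 to 0.121 at the same number and -0.0702 to 0.0344 at different numbers. Alternatives varied the depth, tile size, thresholds, libraries fitted, test and scaling.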

Additional observations from a re-analysis of the deposited data

How the results depend on the processing

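Under the alternatives run, the triple-mutant level of members ranged from 33.3% to 43.3%. Their gap to other WT-high tiles ranged from 10.8 to 17.5 points. Leaving out 1 library that the rule or the triple mutant uses gave 7169 (without W464A/W465A replicate 2) to 11783 members (without W464A/W465A replicate 1), levels of 36.5% to 40.2% and gaps of 11.8 to 14.2 points. A W464A/W465A threshold of 30% gave 32744 members at 33.3% with a gap of 10.8 points, and 50% gave 1393 at 43.3% with 17.5 points. WT thresholds of 60% and 80% gave gaps of 14.6 and 12.1 points. Asking for 10 reads per CpG left 860 members with a gap of 15.4 points, 5 CpGs per tile left 2283, and 50 reads per tile 873, since fewer tiles qualify. With promoters of 1000 bp either side, 3.09% of members were promoter tiles. Among deep tiles TGCCGC was in 15.9% of members and 19.12% of the other WT-high tiles.

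Calls are given as shares of all tiles and of members, because settings differ in the tiles tested. With 10 reads per CpG (37193 tiles) 21649, 20920, 4741, 16669 and 5141 tiles and 856, 775, 82, 608 and 80 members were called, in the order of the triple mutant, W465A and W465A/W796A against W796A, the triple mutant against W465A/W796A, and W465A/W796A against W465A. With 5 CpGs per tile (72999 tiles) these were 52067, 50695, 12198, 42083 and 15616 tiles and 2266, 2101, 235, 1713 and 311 members. Without 1 library in turn, the triple mutant was lower than W796A in 80.1% to 85.4% of tiles and 91.7% to 99.6% of members. W465A was lower in 69.9% to 84.5% and 66.2% to 98.0%, and W465A/W796A in 2.41% to 62.9% and 0.371% to 63.7%. The triple mutant was lower than W465A/W796A in 32.6% to 74.2% and 27.96% to 83.4%. W465A/W796A was higher than W465A in 0% to 46.6% and 0% to 36.7%.

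An offset for the mean tile level of each library asks for changes beyond the global one. It left 10.9% of tiles and 2.04% of members called lower in the triple mutant against W796A, 8.45% and 1.15% in W465A, and 3.61% and 0.499% in W465A/W796A. Against W465A/W796A the triple mutant then had 0 tiles called (21211 tiles and 544 members at an unadjusted p under 0.05), and W465A/W796A against W465A had 0.114% of tiles and 0 members (535 members at an unadjusted p under 0.05). With read-pooled library levels, tried after seeing the data, these were 50.5% and 34.9%, 35.1% and 15.2%, 10.9% and 3.36%, 0 and 0 (34735 tiles and 1026 members unadjusted), and 0.00323% and 0 (508 members unadjusted). By limma and edgeR without an offset the triple mutant against W465A/W796A was called in 60.2% and 63.1% of tiles.

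In W465A/W796A against W796A, members called were 13.5% with all 18 libraries, 13.1% by limma and 5.39% at 25 points. With only the groups compared they were 0 (1533 at an unadjusted p under 0.05), with 0.000646% of tiles. Without squeezing they were 3.92%, with 8.26% of tiles. In W465A/W796A against W465A, members called were 16.9% with all 18 libraries, 6.17% by edgeR, and 3.85% by limma with 9.28% of tiles. With only the groups compared they were 24.6%, with 35.1% of tiles, and without squeezing 0, as for all tiles (2437 members and 59216 tiles unadjusted).

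With the replicate block, a pairing by number that was neither established nor excluded, W465A/W796A was lower than W796A in 8.04% of tiles and 2.67% of members. W465A/W796A was higher than W465A in 0 tiles (61578 tiles and 2416 members at an unadjusted p under 0.05). The other 3 comparisons stayed within 1.5 times under the block. The Optn tile lost its call under the block, without squeezing, with only the groups compared, and without any of 4 libraries. The Dnah2 and Cep57l1 tiles lost theirs without squeezing and without any of 4 libraries. The alternatives counted over members and the gap were added after seeing the data. The cause of these shifts was not tested. Members had a median of 50 reads per library.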
